A study of Mus musculus with 6 samples.

Results

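Neurotrophins are secreted growth factors, and they act through tropomyosin-related kinase (Trk) receptors and through the low-affinity receptor p75. Brain-derived neurotrophic factor (Bdnf) binds TrkB, encoded by Ntrk2, and neurotrophin-3 (Ntf3) binds TrkC, encoded by Ntrk3, while p75, encoded by Ngfr, binds all neurotrophins. Ntrk2 and Ntrk3 each make a full-length receptor with a tyrosine kinase domain, which starts Ras, PI3-kinase and phospholipase C gamma signalling, and truncated receptors that keep the ligand-binding part and lack the kinase. In the developing forebrain the full-length forms are known from neurons and progenitors, and truncated TrkB from astrocytes and radial glia. The truncated form of human NTRK3 has been reported elsewhere as a target of miR-128, a microRNA abundant in neurons.

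The data were exon array profiles of cells named neuronal stem cells in the labels, taken from CD-1 albino mouse embryos at stage E14.5 and grown as neurospheres under proliferation conditions. One group of 3 biological replicates was nucleofected, that is, transfected by electric pulses, with a miR-128 mimic, and the other group of 3 with miR-Control. All groups shared strain, stage and culture, and RNA was extracted 72 h later. The cultured cells do not normally express miR-128, per the submitters' design text. The 5 genes Ntrk2, Ntrk3, Ngfr, Bdnf and Ntf3 were found by matching the RefSeq transcript name of each row to a gene symbol, which gave 12 of the 32025 rows in the table and 5 of 20259 named genes. Of these rows 5 belong to receptors and 7 to ligands.

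The labels name the mimic only as miR-128 and do not say which arm it copies. The mature arms are shown because the seed, bases 2 to 8, sets which transcripts a microRNA can pair with, and the arms differ in it. Capitals mark the seed. The sequences are RefSeq's for assembly GRCm38.p6. The 3p arm has the same sequence at chr1:128202404-128202424 on the plus strand and at chr9:112118644-112118664 on the minus strand, while the 5p arms come from chr1:128202369-128202389 and chr9:112118679-112118701.
mmu-miR-128-3p: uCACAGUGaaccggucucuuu
mmu-miR-128-1-5p: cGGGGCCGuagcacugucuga
mmu-miR-128-2-5p: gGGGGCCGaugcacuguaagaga
The 5p arms share 1 seed with each other and not with the 3p arm. No transcript sequence was searched for these seeds.

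Values are log2 levels, and a difference of 1 is a 2-fold change. Levels of different rows are not comparable, because probes differ between rows, although rows of 1 gene can share some or all of them, so only differences between arrays are read. One array, miR-Control replicate 3, lay at 42.5 on the first principal component against -18.7 to -0.23 for the rest, and it had the smallest interquartile range, 2.87 against 2.98 to 3.22. Median log2 levels were 7.40 to 7.54 over all arrays. The number of arrays limits the precision, and the median SE of log2 fold changes was 0.13. All 10 neural stem cell and radial glia markers had a row, and their mean log2 level was 10.34 to 10.41 in the control arrays and 10.31 to 10.41 in the miR-128 arrays.

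The Trk receptor rows and some Bdnf rows lay higher with miR-128, and the Ngfr and Ntf3 rows did not separate the groups. No row passed the test over all rows. Ntrk3 showed the largest difference of the 5 genes, with a level 1.47-fold that of controls in the full-length row and 1.42-fold in the truncated row. In limma 0 of the 12 rows had a Benjamini-Hochberg adjusted p under 0.05, as in the whole table (0% called), and the adjusted p values ran from 0.370 to 1.00. At an unadjusted p under 0.05 there were 3 of 12 rows, both Ntrk3 rows and the truncated Ntrk2 row, all higher with miR-128, where 4.04% of all rows were higher at that level. The miR-128 arrays all lay above the controls in 6 of 12 rows, against 6.98% of all rows, and all below in 0 rows, against 4.87%. The count above was 3 after median centring and 4 after quantile normalization. Those 6 rows come from 3 genes, and rows of 1 gene can share probes, so they are not independent. Of the 12 rows 11 had a log2 fold change above 0, as had 56.8% of all rows. The median log2 fold change of the 12 rows was 0.19, and that of all rows was 0.02.

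**Figure D1:**
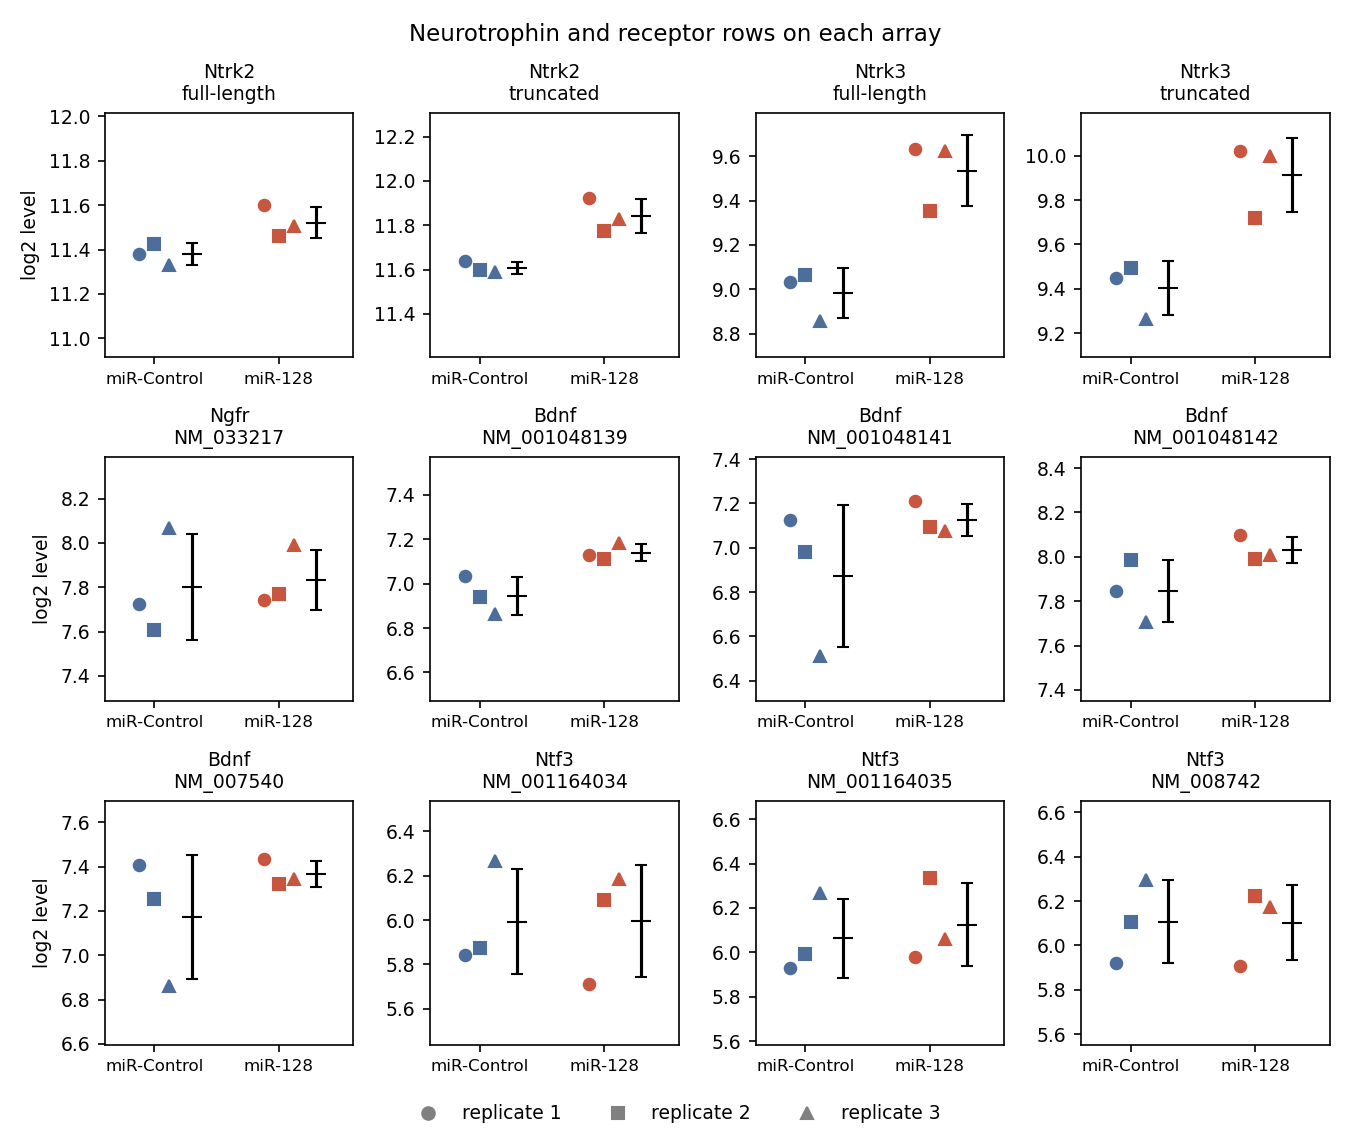
Log2 level of each of the 12 rows on each array, with miR-Control in blue and miR-128 in red, the replicate number as the marker shape, and the mean with its SD (n = 3) in black; every panel spans the same log2 range. Both Ntrk3 panels show the widest gap between the groups, 0.29 and 0.23, and the Ngfr and Ntf3 panels show overlapping groups.

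Ntrk3, the neurotrophin-3 receptor, separated the groups in both rows. The full-length row (NM_008746) had log2 levels of 9.03, 9.06 and 8.86 on the control arrays, in order of replicate number here and below, against 9.63, 9.35 and 9.62 on the miR-128 arrays. All miR-128 arrays lay above all controls, and miR-128 replicate 2 lay lowest of its group. Group means were 8.98 ± 0.11 and 9.54 ± 0.16 (SD, n = 3), so the log2 fold change was 0.55 (SE 0.12, 95% interval 0.28 to 0.82) with an adjusted p of 0.370 in limma. The truncated row (NM_182809) had 9.45, 9.49 and 9.26 on the control arrays, against 10.02, 9.72 and 9.998 on the miR-128 arrays. It showed the same order of arrays, with a log2 fold change of 0.51 (SE 0.12, 95% interval 0.23 to 0.79) and an adjusted p of 0.393 in limma. An exact two-sided permutation test gave p = 0.1 for each row, the smallest that 3 arrays against 3 allow. Without miR-Control replicate 3 the log2 fold changes were 0.49 and 0.44. In bulk RNA a change in the number of cells that express a gene and a change in RNA per cell cannot be told apart.

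Ntrk2, the Bdnf receptor, differed by less. The truncated row (NM_008745) had log2 levels of 11.64, 11.60 and 11.59 on the control arrays, against 11.92, 11.78 and 11.83 on the miR-128 arrays. Again no array of one group lay within the other, with a log2 fold change of 0.23 (SE 0.10, 95% interval 0.01 to 0.46) and an adjusted p of 0.678 in limma, a level 1.18-fold that of controls. The full-length row (NM_001025074) had 11.38, 11.43 and 11.33 on the control arrays, against 11.60, 11.46 and 11.51 on the miR-128 arrays. Its groups were apart by only 0.03 and overlapped when each array was centred on its median. The log2 fold change was 0.14 (SE 0.10, 95% interval -0.08 to 0.37), with an adjusted p of 0.876 in limma. Without miR-Control replicate 3 the values were 0.22 for the truncated and 0.12 for the full-length row.

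**Figure D2:**
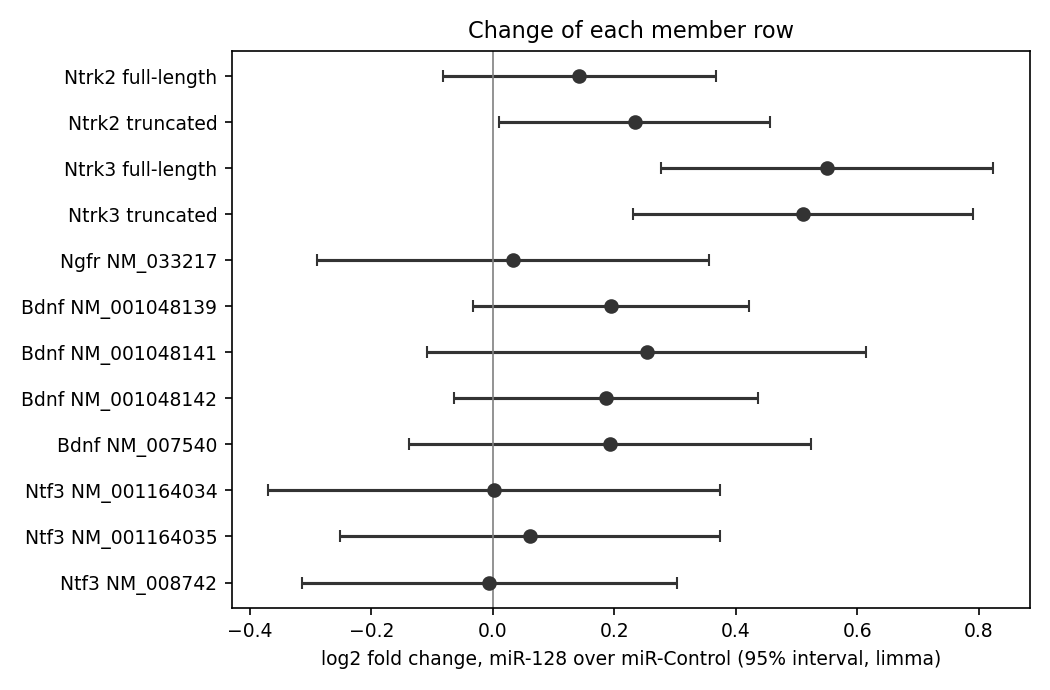
Log2 fold change of miR-128 over miR-Control for each of the 12 rows (points) with its 95% interval from limma (bars), where 0 means no difference. The intervals of both Ntrk3 rows, 0.28 to 0.82 and 0.23 to 0.79, and of the truncated Ntrk2 row, 0.01 to 0.46, lie above 0, and the other 9 include it.

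Full-length and truncated rows were then set against each other on the same array, which asks whether miR-128 shifted one receptor form relative to the other. The forms were assigned to the accessions from general knowledge of these RefSeq entries, not from the files. For Ntrk3 the truncated row minus the full-length row was 0.42, 0.43 and 0.41 on the control arrays, against 0.39, 0.37 and 0.38 on the miR-128 arrays. The shift of -0.04 (SE 0.01, 95% interval -0.06 to -0.02) had an exact permutation p of 0.1, again the smallest possible, and is small beside the log2 fold changes of 0.51 and 0.55 of the rows themselves. Since the rows may share probes, this shift sets no bound on the isoform itself. For Ntrk2 the same difference was 0.26, 0.17 and 0.26 on the control arrays, against 0.32, 0.32 and 0.32 on the miR-128 arrays, a shift of 0.09 (SE 0.03, 95% interval 0.01 to 0.17, exact permutation p = 0.1) toward the truncated row. In limma's test of a row's deviation from its gene's mean on each array, over 7302 rows of 2966 genes, both Ntrk3 rows had an adjusted p of 0.960 and both Ntrk2 rows 0.960, and 0% of rows passed. At an unadjusted p under 0.05 there were 4.51% of rows, among them the 4 Trk rows, which are 2 tests, since deviations of 2 rows from their mean mirror each other. Over the 6 arrays the rows of a pair had a Pearson r of 0.999 for Ntrk3 and 0.93 for Ntrk2. How many probes the rows share is not known here.

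Ntrk3 was set against Ntrk2 in the same way. This comparison was chosen after Ntrk3 was seen to differ most, so groups that lie apart in it add no separate support. The full-length Ntrk3 row minus the full-length Ntrk2 row was -2.35, -2.36 and -2.48 on the control arrays, against -1.97, -2.11 and -1.88 on the miR-128 arrays. Every miR-128 array had the higher difference, and the shift of 0.41 (SE 0.08, exact two-sided permutation p = 0.1) was larger than the SD of 0.07 among controls and 0.11 among miR-128 arrays. For the truncated rows the shift was 0.28 (SE 0.09, exact permutation p = 0.1). With any 1 array left out the full-length shift stayed between 0.36 and 0.47. The design cannot take such a single comparison below 0.1.

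**Figure D3:**
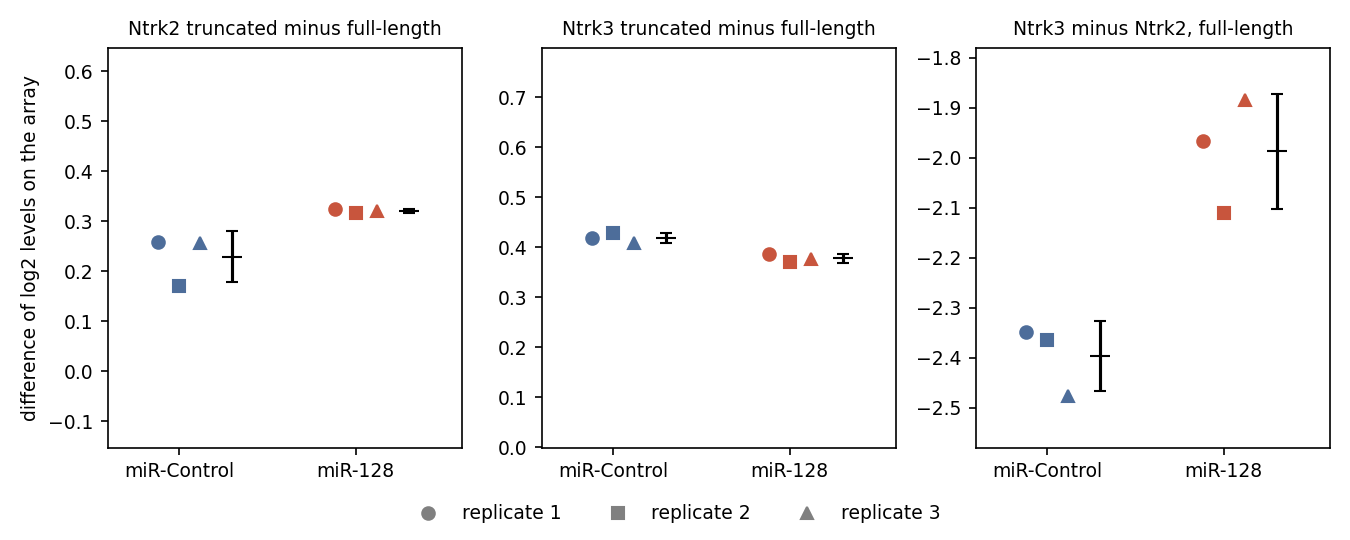
Differences of log2 levels between 2 rows on the same array, by group, with replicate numbers as marker shapes and the mean with its SD (n = 3) in black; every panel spans the same range. Truncated minus full-length differed between the groups by 0.09 for Ntrk2 and by -0.04 for Ntrk3, while Ntrk3 minus Ntrk2 differed by 0.41 in the full-length rows shown (0.28 in the truncated rows).

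Ngfr encodes p75, the receptor of the tumour necrosis factor receptor family that binds all neurotrophins. Its only row had log2 levels of 7.72, 7.61 and 8.07 on the control arrays, against 7.74, 7.77 and 7.99 on the miR-128 arrays. The groups overlapped, and the highest array was miR-Control replicate 3. The log2 fold change was 0.03 (SE 0.14, 95% interval -0.29 to 0.36) with an adjusted p of 0.992 in limma, so changes up to 1.28-fold higher lie within the interval. The value was 0.17 without miR-Control replicate 3 and turned to -0.0029 after quantile normalization.

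Bdnf, the ligand of TrkB, is made from several promoters that give transcripts with different first exons and 1 shared coding exon. Its 4 rows had log2 fold changes of 0.19 to 0.25, and no row passed, with adjusted p values of 0.759 to 0.896 in limma. The row NM_001048139 had log2 levels of 7.03, 6.94 and 6.86 on the control arrays, against 7.13, 7.11 and 7.18 on the miR-128 arrays, and NM_001048142 had 7.85, 7.98 and 7.71 on the control arrays, against 8.10, 7.99 and 8.01 on the miR-128 arrays. In these rows the groups did not overlap, by margins of 0.08 and 0.0038, and both overlapped after median centring and after quantile normalization. The rows NM_001048141 and NM_007540 overlapped: in the first, miR-Control replicate 3 lay at 6.51 against 6.98 to 7.21 on the other arrays, and in the second at 6.86 against 7.25 to 7.43. Without miR-Control replicate 3 the log2 fold changes were 0.07 and 0.04 in those rows and 0.15 and 0.12 in NM_001048139 and NM_001048142. Differences between the Bdnf rows did not pass the test within genes, with adjusted p values of 0.973 to 0.992 in limma.

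Ntf3, the ligand of TrkC, did not separate the groups in any of its 3 rows. NM_008742 had log2 levels of 5.92, 6.10 and 6.30 on the control arrays, against 5.91, 6.22 and 6.17 on the miR-128 arrays. The control range covers nearly all of the miR-128 values. The log2 fold changes of NM_008742, NM_001164035 and NM_001164034 were -0.01, 0.06 and 0.0023, with 95% intervals that reached from -0.37 to 0.37 at the widest and adjusted p values of 0.985 to 1.00 in limma. The sign was unstable: NM_001164034 turned to -0.03 after median centring. Without miR-Control replicate 3 the log2 fold changes were 0.09, 0.16 and 0.14. Whether these low signals lie above background is unknown, since no detection values were used.

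Neurotrophin-4, encoded by Ntf5, was at a log2 fold change of -0.04 (SE 0.11, adjusted p = 0.988 in limma), with overlapping groups. Sort1, sortilin, a coreceptor of p75 for the precursor forms of neurotrophins, was at 0.10 (SE 0.10, adjusted p = 0.940). The 8 genes of the sortilin family and p75 coreceptors split into 4 higher and 4 lower with a median of 0.02. The ones of smallest p both lay lower: Sorcs1, a sortilin-related sorting receptor, had 8.83, 8.42 and 8.41 on the control arrays, against 8.14, 8.10 and 8.33 on the miR-128 arrays, a log2 fold change of -0.36 (SE 0.14, adjusted p = 0.649), and Nradd, a p75-related death domain protein, was at -0.19 (SE 0.10, adjusted p = 0.761). In both the miR-128 arrays lay below all controls, as in no other of the 8 genes, and in 1 of the 8 they lay above. Over all named genes 5.27% lay below and 6.87% above.

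Adaptors and effectors that carry the Trk signal lay higher in 24 of 33 measured genes, with a median log2 fold change of 0.11, against 56.2% higher and a median of 0.02 over all 20259 named genes. The median was 0.05 under array weights. None passed (0% over all rows), and 6 of the 33 had an unadjusted p under 0.05 in limma, all higher, where 4.04% of all rows were higher at that level. Shc4, an Shc-family adaptor for phosphorylated receptors, had 8.97 ± 0.03 in the controls and 9.25 ± 0.05 with miR-128 (SD, n = 3), with arrays of a group close together and a log2 fold change of 0.28 (SE 0.10, adjusted p = 0.585). Gab1, a docking protein for PI3-kinase, was at 0.43 (SE 0.15, adjusted p = 0.603). All 3 miR-128 arrays lay above all controls in 3 of the 33 genes, the third being the survival gene Bcl2, and below in 2 of the 33, where 6.87% of all named genes lay above and 5.27% below. Bcl2 was at 0.25 (SE 0.11, adjusted p = 0.685) in the row used for the list, and at 0.14 in a further row whose groups overlap.

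The other groups of the pathway varied. Genes reported to follow neurotrophin stimulation lay higher in 10 of 14, with a median of 0.13. The orphan receptor gene Nr4a1 stood at 0.57 (SE 0.19, adjusted p = 0.570), with overlapping groups, and Egr2, a zinc finger transcription factor, at 0.48 (SE 0.13, adjusted p = 0.461), with groups apart. The median of this list was 0.02 without miR-128 replicate 3, 0.07 without miR-128 replicate 1, 0.05 without miR-Control replicate 2 and 0.06 under array weights. Proteases of neurotrophin processing and receptor cleavage lay higher in 6 of 9 measured genes, with a median of 0.01. Plat, tissue plasminogen activator, which activates the plasmin that cleaves proBDNF, had 11.74, 11.77 and 11.69 on the control arrays, against 11.98, 11.93 and 11.91 on the miR-128 arrays, groups apart by 0.14, at 0.20 (SE 0.10, adjusted p = 0.724), and the gamma-secretase subunit Ncstn was at 0.18 (adjusted p = 0.851). Intracellular partners of p75 lay higher in 8 of 15, with a median of 0.01, and those of smallest p were Ndn, encoding necdin, at -0.21 (adjusted p = 0.809) and the kinase gene Ripk2 at 0.21 (adjusted p = 0.815).

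Regulators reported for Bdnf transcription lay higher in 6 of 13, with a median of -0.02. Creb1, the cAMP-responsive activator, was at -0.22 (SE 0.11, adjusted p = 0.739), with all miR-128 arrays below the controls. Over all 7 lists 95 genes were measured, 60 higher and 35 lower, and 0 passed in limma. The groups did not overlap in 15 of the 95 genes, 9 above and 6 below, where 6.87% of all named genes lay above and 5.27% below.

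**Figure D4:**
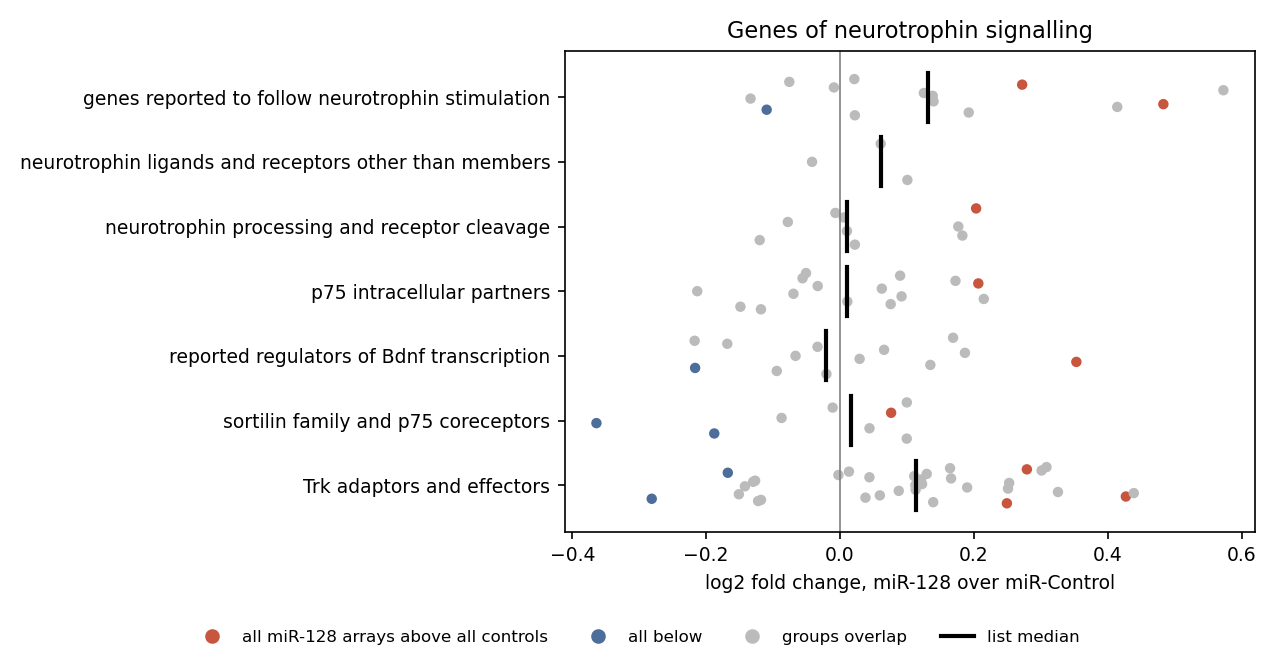
Log2 fold change of miR-128 over miR-Control for each measured gene of 7 neurotrophin pathway lists (points), with red for genes whose miR-128 arrays all lie above the controls, blue for all below, grey for overlapping groups, and a black bar at the list's median. The medians run from -0.02 for Bdnf regulators to 0.13 for genes that follow stimulation, with the Trk adaptors at 0.11.

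Markers of other cells that could be present in neurospheres differed little between the groups, except in the glial lists. Trk receptors are also known from astrocytes and oligodendrocyte progenitors. Of 8 oligodendrocyte lineage markers 7 lay higher, with a median log2 fold change of 0.18, and the list's mean log2 level was 8.47 to 8.55 in the controls and 8.67 to 8.78 with miR-128. Of 8 astrocyte markers 6 lay higher, with a median of 0.11, and the mean level was 8.86 to 8.95 and 8.97 to 9.04. Among the astrocyte markers 4 are named after their values were seen. The glutamate transporter gene Slc1a2 was at 0.47 (adjusted p = 0.456 in limma). The calcium-binding protein gene S100b was at 0.32 (adjusted p = 0.578 in limma). Gja1 at -0.29 and Aldoc at -0.19 lay lower. Groups were apart in these 4 genes, in Aldoc by only 0.004. Of the 8 astrocyte markers 2 lay above and 2 below, where 6.87% of all named genes lay above and 5.27% below. The progenitor marker Pdgfra was at -0.04. No marker had a value of 0, which log2 array values do not reach, and the part of these cells in the Ntrk3 and Ntrk2 values was not tested.

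For the other marker lists the medians were small. Neurons had 6 of 10 higher and a median of 0.02, with mean levels of 7.43 to 7.51 in the controls and 7.48 to 7.53 with miR-128. Neural stem cells and radial glia had 5 of 10 higher and a median of 0.02. Single genes of this list ranged from -0.30 for Nes to 0.33 for Hes5, both with overlapping groups. Fabp7, named after its values were seen, was at -0.30 (adjusted p = 0.641 in limma), with groups apart. Microglia had 7 of 7 higher and a median of 0.03, with 6.02 to 6.14 and 6.12 to 6.14. Vascular and mesenchymal cells had 5 of 9 higher and a median of 0.0093, with 6.59 to 6.76 and 6.57 to 6.76. Neural crest and Schwann cells, which are known for Ngfr, had 5 of 7 higher and a median of 0.01, with 7.76 to 7.84 and 7.78 to 7.81.

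**Figure D5:**
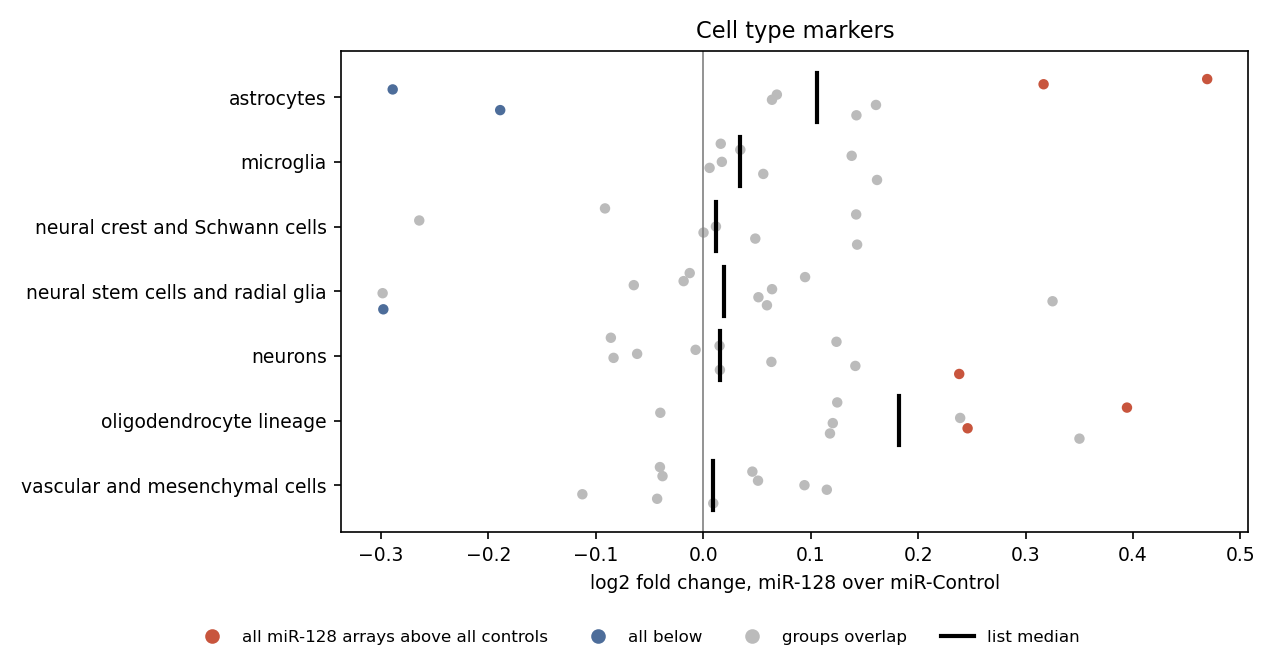
Log2 fold change of miR-128 over miR-Control for each marker gene of 7 cell type lists (points), coloured by whether all miR-128 arrays lie above (red) or below (blue) all controls or overlap (grey), with a black bar at the list's median. The oligodendrocyte lineage median lies at 0.18 and the astrocyte median at 0.11, the other 5 at 0.03 or less.

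The genes whose pattern over the 6 arrays was most like that of each member were taken by Pearson r among 20258 other named genes, as a description. With so few arrays high values are common: 365 genes had an r over 0.9 with Ntrk3. The closest were Mfsd6 (0.996) and Stat3 (0.995) for Ntrk3, and Nrxn3 (0.993) and Marchf4 (0.992) for Ntrk2. For Bdnf they were Spata48 (0.996) and Rarb (0.988), for Ngfr 9530059O14Rik (0.997) and Rasgrf2 (0.994), and for Ntf3 Rxfp1 (0.999) and 1700001K19Rik (0.992). Among the members themselves the pattern of Ntrk3 was most like that of Ntrk2 (r = 0.95) and of Bdnf (0.87), and unlike those of Ngfr (-0.06) and Ntf3 (-0.32). All points share the same 6 arrays.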

How the data were processed

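The deposited values are log2 levels that the authors made by RMA in the affy package (versions not stated), per the submitters' processing notes. RMA subtracts background, equalises arrays and summarises probes, and it tends to compress fold changes. Neither the source of the probe grouping nor a genome build is stated. Rows were matched to gene symbols through RefSeq transcript accessions (assembly GRCm38.p6, names only): 25339 of 32025 rows were named. Members and lists were chosen with earlier results of these data known.

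limma 3.58.1 in R 4.3.3 (lmFit and eBayes, two-sided, unpaired, no filter on low values) was fitted to all 32025 rows and 6 arrays, with Benjamini-Hochberg adjustment and a threshold of 0.05. It was tried on simulated independent rows with planted changes larger than those of the member rows. That trial does not show how well changes as small as those of the member rows are found. A gene in a list is its row of highest mean. Lists were described by counts and medians, with no set test. Named are all rows of the 5 genes, Ntf5, Sort1 and Bcl2, the 2 genes of smallest p in each pathway list and the 2 most alike genes per member; some genes that the rule names are left out of this text. Alternatives were other scaling, a filter on low values, unmoderated statistics, an intensity trend with a robust prior, array weights, a replicate block, distinct rows, other summaries and each array left out. The comparisons of Trk rows on the same array were chosen after seeing the data.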

Additional observations from a re-analysis of the deposited data

How the results depend on the processing

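The log2 fold changes of the Ntrk2, Ntrk3 and Bdnf rows kept their sign under other scaling, array weights and each array left out. The other alternatives, such as the filter, unmoderated statistics or the replicate block, leave a row's log2 fold change as it is and cannot change its sign. No member row passed an adjusted p of 0.05 under any alternative. Over 162 member values 147 kept direction and side of the threshold and 15 changed sign, all of Ngfr and Ntf3. The 147 include values whose sign was fixed in this way, so the count overstates how stable the direction was. The lowest adjusted p of a member row was 0.0958, for full-length Ntrk3 under limma's array weights.

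Median centring turned Ntf3 NM_001164034 to -0.0257, and quantile normalization turned it to -0.0580 and Ngfr to -0.0029. Array weights turned Ntf3 NM_008742 to 0.0555. With 1 array left out, Ngfr ranged from -0.0622 to 0.168, and the Ntf3 rows from -0.0927 to 0.145 (NM_001164034), -0.0447 to 0.163 (NM_001164035) and -0.0992 to 0.0904 (NM_008742). Rows with groups apart numbered 3 after median centring against 6, both Ntrk3 rows and truncated Ntrk2.

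Over all rows 4 passed after the filter on low values and 24 under array weights, and the cause was not tested for either. The filter leaves 16013 rows and drops those of Ntf3 and 3 of Bdnf. List medians moved by more than the SD between replicates of the list's mean level in 2 of 90 alternatives. The spread of the median itself was not computed, so smaller moves are not shown to be negligible. With 1 array left out the median ranged from 0.0196 to 0.191 for genes that follow stimulation and from -0.0233 to 0.0314 for Bdnf regulators.

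Whether the replicate numbers pair the arrays was not settled. Same-numbered arrays' deviations correlated at -0.0028, 0.17 and 0.05. Some arrays correlated best with their own number and some did not. With so few arrays per group these correlations can neither show nor exclude pairing. With the replicate number as a block 0 rows passed, and full-length Ntrk3 had an adjusted p of 0.413.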
